A study of Mus musculus with 6 samples.

Results

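The 10 genes Cd300a, Cd300lb, Cd300lf, Trem1, Trem2, Trem3, Clec4d, Clec4e, Clec4n and Clec7a encode surface receptors of the CD300, TREM and C-type lectin families. They were taken by name, with every probe whose RefSeq accession leads to one of them. This gave 15 of 56605 probes and 10 of the 23462 genes named on the array. Cd300lb was chosen by its processed signal and its well-above-background call, which one of its probes lost in the knockout, and the other receptors were picked with the results of the same comparison known. All differences between knockout and control at these genes are therefore given as descriptions.

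Gene expression was measured in the colon of 6 male mice on single-colour Agilent arrays, with 1 array per animal. There were 3 controls and 3 animals with a knockout of Islr, which encodes a secreted leucine-rich repeat protein of stromal cells. Per the sample source field, animals of both groups drank 3.5% dextran sulfate sodium, which injures the colonic epithelium, for 5 days and then recovered for 1 day; a separate treatment field says that no treatment was given. The labels used here do not give the strain, the age, the design of the Islr allele or the cells in which it was deleted, nor the genotype of the controls beyond the word control.

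CD300, TREM and C-type lectin receptors sit mainly on myeloid cells, where they sense lipids of dying cells, microbial sugars and other products of tissue injury. Activating members such as Trem1, Trem2, Trem3 and Cd300lb have short tails and signal through the adaptor DAP12, encoded by Tyrobp. Clec4d, Clec4e and Clec4n pair with the Fc receptor gamma chain, encoded by Fcer1g, whereas Clec7a carries its own signalling motif; these lectins act through the kinase Syk and the scaffold protein Card9. Cd300a and Cd300lf carry inhibitory tail motifs that recruit phosphatases. In the colon such receptors are found on the neutrophils, monocytes and macrophages that gather during colitis.

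Values below are log2 processed signals minus the array's 75th percentile, so that 0 marks the 75th percentile itself. To check the labels, Islr was read before the receptors. Its probe stood at 1.57, 1.24 and 1.21 in controls 1, 2 and 3 and at -1.40, -0.93 and -1.31 in knockouts 1, 2 and 3. The difference was -2.44 (SE 0.21, limma adjusted p = 0.0171), with the outlier spot of control 1 left out of the fit. The share of spots well above background ran from 69.4% to 75.4% over the arrays, and the 75th percentile ran from 4911 to 7110 intensity units, lowest in knockout 1. The controls occupied slide row 1 and the knockouts row 2, so the row and the genotype cannot be told apart. The series' design text mentions a flow separation into TRIzol; epithelial markers (8 of 8 on every array), fibroblast markers (5 of 5), smooth muscle markers (5 of 5) and pan-leukocyte markers (7 to 8 of 8) were all well above background. Since this is bulk RNA, fewer cells of a type and less RNA per cell cannot be told apart.

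Of the 15 receptor probes 13 could be tested. By the brightest tested probe of each gene, 9 of the 10 receptors were lower in the knockout and 1, Trem1, was higher, with a median log2 difference of -1.47 against 0.01 over the 16451 genes tested. With a limma adjusted p under 0.05 as the call, 1 of the 10 genes was called, and it was lower; over all tested genes 3.82% were called, 2.47% lower and 1.35% higher. Over probes the count was 2 of 13, both lower, where 3.97% of all tested probes were called, 2.42% lower and 1.55% higher. These 2 were Clec4d and the Cd300lb probe chosen for its loss in the knockout, whose call was fixed by that choice. The 3 knockouts lay below the 3 controls at 8 of the 13 probes and above them at none; over all tested probes the groups did not overlap at 34.9%, with the knockouts below at 17.8% and above at 17.1%. Because this comparison was in view when the receptors were picked, nothing is read from these counts. Leaving Cd300lb aside, the fitted differences were largest at Clec4d, Clec4e, the dimmer probe of Trem1 and Trem3. The Trem3 difference of -2.19 shrank to -1.0 without knockout 1, which was not well above background there. Clec4n, Trem2 and the tested probe of Cd300a followed, from -1.60 to -1.36. Cd300lf (-0.99 and -0.84) and Clec7a (-0.82) had smaller differences, with overlapping groups. The probes of 3 genes, Trem1, Cd300lb and Cd300a, disagreed.

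**Figure D1:**
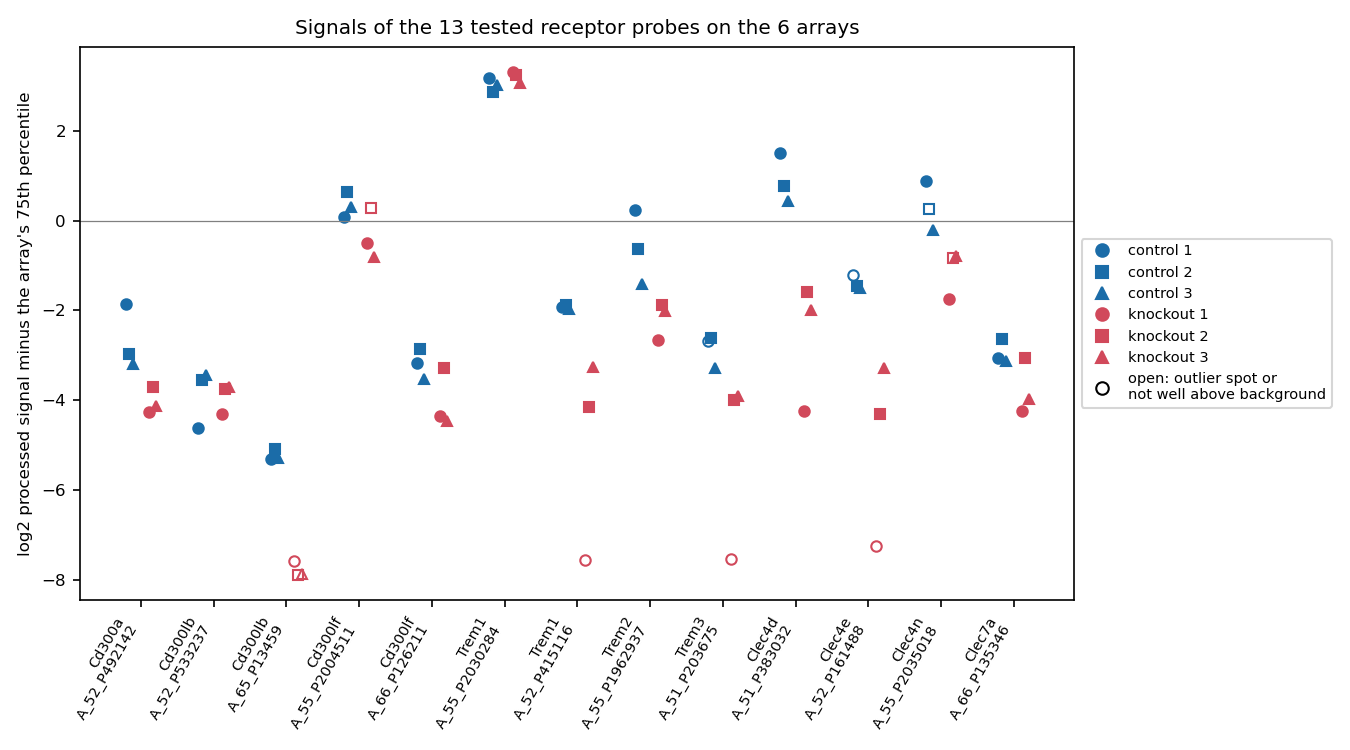
Log2 processed signal minus the array's 75th percentile (y axis) at the 13 tested receptor probes (x axis), 1 point per array, controls in blue and knockouts in red; open symbols are outlier spots or signals not well above background. Clec4d lies between 0.45 and 1.5 in controls and between -4.24 and -1.59 in knockouts, while the brighter Trem1 probe lies between 2.87 and 3.31 on all arrays.

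Clec4d and Clec4e, C-type lectins of the Dectin cluster, had the largest differences among the receptor probes by their estimates. Clec4d, a receptor for mycobacterial glycolipids that partners with Clec4e, stood at 1.5, 0.78 and 0.45 in controls 1 to 3 and at -4.24, -1.59 and -2.0 in knockouts 1 to 3. Every knockout lay below every control, and knockout 1 was the lowest array. Clec4d fell by 3.52 on the log2 scale (SE 0.69, limma adjusted p = 0.0468), which is 11.4-fold. The call was lost in 5 of the 6 fits that left an array out, with adjusted p up to 0.118, and kept without knockout replicate 2 (0.0434). Without knockout replicate 1 the difference was -2.70.

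Clec4e, known as Mincle, senses mycobacterial cord factor and products of dead cells. Its probe stood at -1.21, -1.46 and -1.49 in controls and at -7.25, -4.31 and -3.29 in knockouts. Knockout 1 was not well above background, and the value of control 1 came from an outlier spot and was left out of the fit. The groups did not overlap. With the remaining arrays the difference was -3.48 (SE 1.13, adjusted p = 0.124 in limma, not called); without knockout replicate 1 it was -2.33.

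Clec4d and Clec4e are direct neighbours among the protein-coding genes of chromosome 6, and Clec4n lies directly before Clec4d. The 250 bases before the RefSeq start are shown for the first 2, because these receptors had the largest differences and lie side by side. They come from RefSeq with build GRCm38.p6: chr6:123261857-123262106 on the plus strand for Clec4d and chr6:123289872-123290121 on the minus strand for Clec4e, both written 5′ to 3′. Capitals mark the letters GAGGAA, a core of the site of the myeloid factor PU.1, and TTGCNNAA, a form of the C/EBP site, on either strand; TTCCTC is GAGGAA on the other strand.
Clec4d: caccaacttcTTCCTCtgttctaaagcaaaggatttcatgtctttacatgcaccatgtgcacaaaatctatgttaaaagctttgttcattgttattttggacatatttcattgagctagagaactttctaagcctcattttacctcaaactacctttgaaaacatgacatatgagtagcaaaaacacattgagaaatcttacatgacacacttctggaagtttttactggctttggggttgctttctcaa
Clec4e: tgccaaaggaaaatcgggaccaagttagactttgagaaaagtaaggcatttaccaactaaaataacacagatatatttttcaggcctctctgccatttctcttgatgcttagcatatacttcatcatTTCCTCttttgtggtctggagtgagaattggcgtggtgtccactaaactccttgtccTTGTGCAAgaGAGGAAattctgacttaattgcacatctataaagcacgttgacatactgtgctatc
The Clec4d window held GAGGAA 1 time, starting 240 bases before the start, and the Clec4e window 2 times, 123 and 56 bases before it, with a TTGCNNAA match at 66 bases that did not overlap them. GAGGAA was found in 23.3% of 32851 windows of this length and TTGCNNAA in 9.56%. Such matches describe letters only.

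Clec4n, known as Dectin-2, recognises fungal mannans. It stood at 0.87, 0.26 and -0.21 in controls and at -1.74, -0.84 and -0.79 in knockouts, without overlap. The spots of control 2 and knockout 2 were outliers, so the fit used 2 arrays per group and gave a difference of -1.60 (SE 0.51, adjusted p = 0.137 in limma). With all spots it was -1.43.

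Clec7a, known as Dectin-1, is the main receptor for fungal beta-glucan. Its probe gave -3.05, -2.63 and -3.12 in controls and -4.24, -3.06 and -3.98 in knockouts. Knockout 2 lay inside the range of the controls, so the groups overlapped. The difference was -0.82 (SE 0.33, adjusted p = 0.170), the smallest of the 4 lectins.

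In the rest of the Dectin cluster, 11 of 13 other listed genes could be tested; 9 were lower and 2 higher, with a median of -0.90. One was called: Clec12b, an inhibitory lectin receptor, which was well above background in every control and in none of the knockouts. Its signal was at least 1.55-fold lower in the knockout (adjusted p = 0.0327 in limma). Clec12b entered the test through its controls alone, so nothing is read from its p-value. The call was lost without a filter on dim probes and on dropping control 2 or any 1 knockout. Clec4a3 (-2.10, SE 0.51) and the scavenger receptor gene Olr1 (-3.30, SE 0.92) did not pass, with adjusted p of 0.0657 and 0.0858, and Olr1 passed the background call in 1 of the 3 knockouts. Among other myeloid lectins 9 of 15 listed genes were tested and 1 was called, Clec5a, a DAP12-coupled receptor of neutrophils and monocytes. Clec5a fell by 1.67 (SE 0.30, adjusted p = 0.0468), with 1 outlier spot left out of the fit. Its call was lost with outlier spots kept, without a filter on dim probes, from the deposited value table and on dropping control 2 or control 3. That probe could not be tested on dropping knockout 1 or knockout 3. The other Clec5a probes differed by -0.79 and -1.45 without being called.

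**Figure D2:**
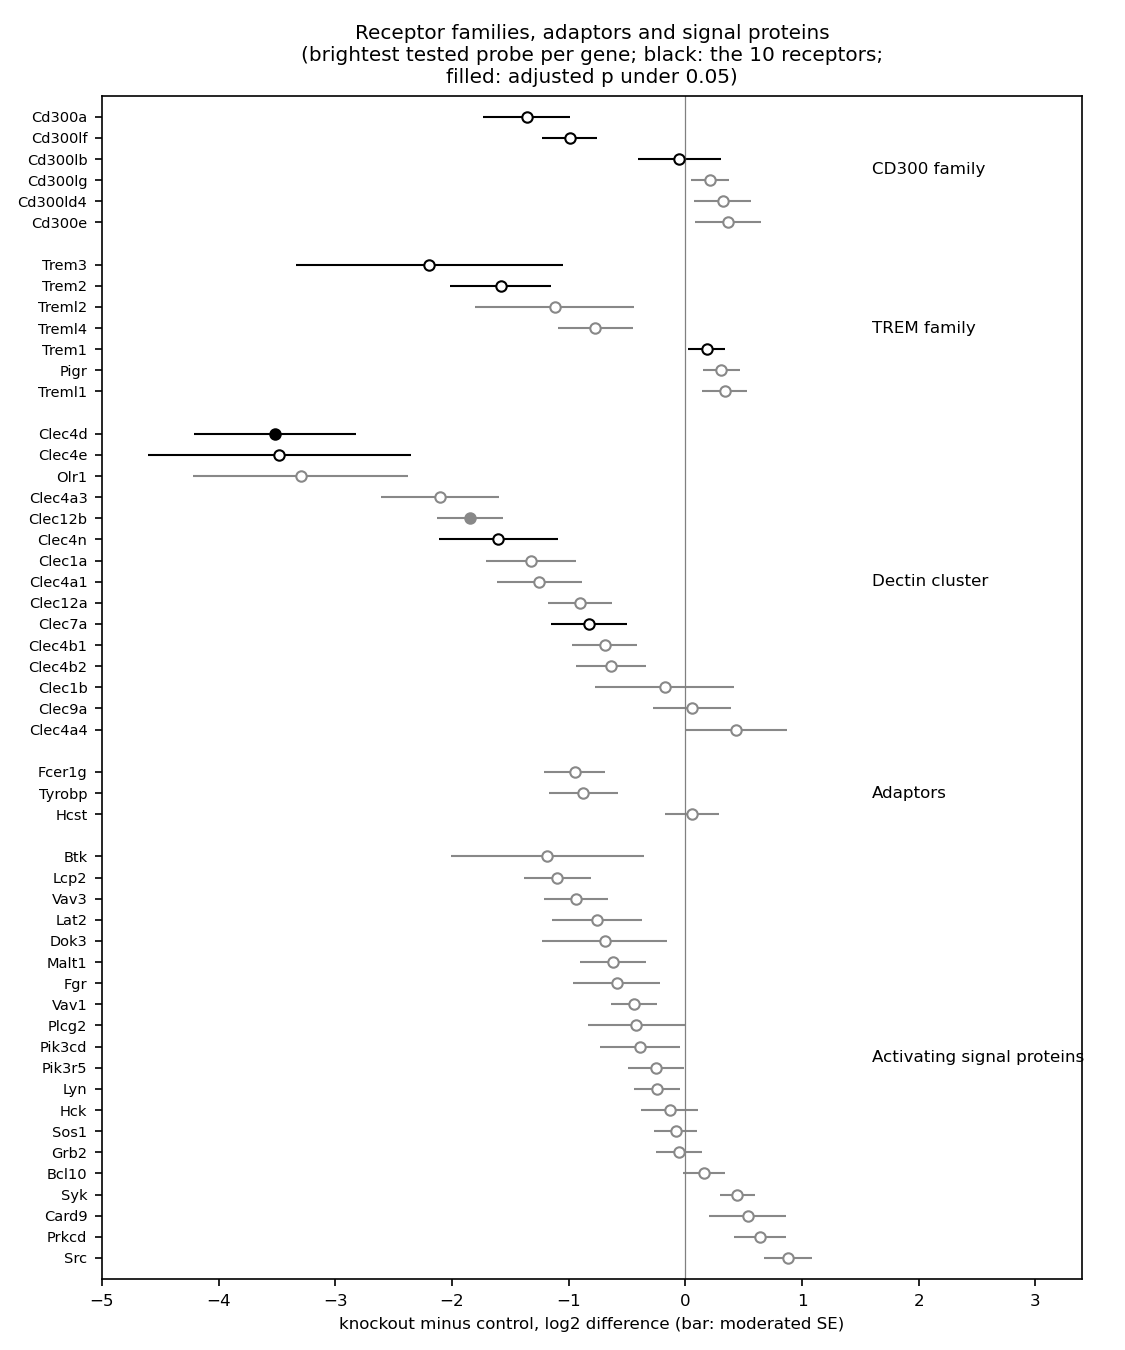
Knockout minus control log2 difference (x axis) with its moderated standard error for the brightest tested probe of each gene (y axis) in the 3 receptor families, the adaptors and the activating signal proteins; black points are the 10 receptors, grey points other genes, filled points those with an adjusted p under 0.05. Clec4d (-3.52) and Clec12b (-1.85 as fitted, with knockout signals not well above background) are the filled points, and Trem1 and Cd300lb appear by their brighter probes only.

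Among the TREM receptors, Trem2 and Trem3 had lower values in the knockout without being called, and Trem1 depended on the probe. Trem2, a lipid-sensing receptor of macrophages and microglia, stood at 0.25, -0.64 and -1.41 in controls and at -2.65, -1.88 and -2.02 in knockouts. The groups did not overlap, although the controls themselves were spread widely (SD 0.83). The difference was -1.58 (SE 0.43, limma adjusted p = 0.0827). It ranged from -1.99 to -1.16 when single arrays were dropped.

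Trem3, an activating DAP12-coupled receptor of mouse myeloid cells, gave -2.68, -2.62 and -3.28 in controls and -7.53, -4.00 and -3.91 in knockouts. Knockout 1 was not well above background, and control 1 was an outlier spot. The difference of the fit was -2.19 (SE 1.15, adjusted p = 0.282). Without knockout replicate 1 it was -1.0.

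Trem1 amplifies inflammatory signals in neutrophils and monocytes, and its 2 probes disagreed. A_55_P2030284 read 57343, 52004 and 53529 intensity units (processed signal) in controls 1 to 3 and 48659, 55575 and 48391 in knockouts 1 to 3. The groups overlapped, and after scaling the difference was 0.18 (SE 0.16, adjusted p = 0.494). The signal of A_52_P415116 was 1689, 1927 and 1667 units in controls and 26.0, 330 and 599 in knockouts. All knockouts lay below all controls there, and knockout 1 was not well above background. The difference at that probe was -3.07 (SE 1.02, adjusted p = 0.119), and -1.78 without knockout replicate 1.

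Both Trem1 probes carry the same RefSeq accession. With knockout replicate 1 left out they gave 0.14 and -1.78, so the disagreement was smaller and still present without the array that was not well above background.

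Of the other TREM family members 4 of 4 listed genes were tested, 2 lower and 2 higher, and none was called in limma. They were Treml2 (-1.12, SE 0.68, adjusted p = 0.336), Treml4 (-0.77, SE 0.32, adjusted p = 0.184), Treml1 (0.34, SE 0.19, adjusted p = 0.309) and Pigr, the epithelial immunoglobulin transporter whose gene was listed with the family (0.31, SE 0.16, adjusted p = 0.262). The Treml4 groups did not overlap, and those of Treml2 did.

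Cd300lb, an activating receptor that binds lipids of dying cells, was chosen as lost in the knockout, and that description held for 1 of its 3 probes. A_65_P13459 read 160, 208 and 167 intensity units (processed signal) in controls 1 to 3 and 25.5, 24.6 and 24.8 in knockouts 1 to 3. The control signals stood just above the lowest signal that was well above background on any of the arrays (116 to 122 units), and no knockout array passed. The signal was therefore at least 1.21-fold higher in controls than in knockouts.

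The brightest Cd300lb probe, A_52_P533237, was well above background on all 6 arrays. Its signals were 258, 606 and 605 units in controls and 249, 431 and 442 in knockouts. The groups overlapped, with control 1 and knockout 1 the dimmest of each. After scaling the values were -4.62, -3.55 and -3.44 in controls and -4.30, -3.75 and -3.71 in knockouts, a difference of -0.05 (SE 0.35). Leaving out 1 array at a time moved it between -0.43 and 0.17, so its sign was not settled.

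The third Cd300lb probe, A_55_P2743427, read 23.4 to 24.9 units on all 6 arrays and was well above background on none. The files thus hold a loss at 1 dim probe, and at the brightest probe a difference smaller than its standard error.

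**Figure D3:**
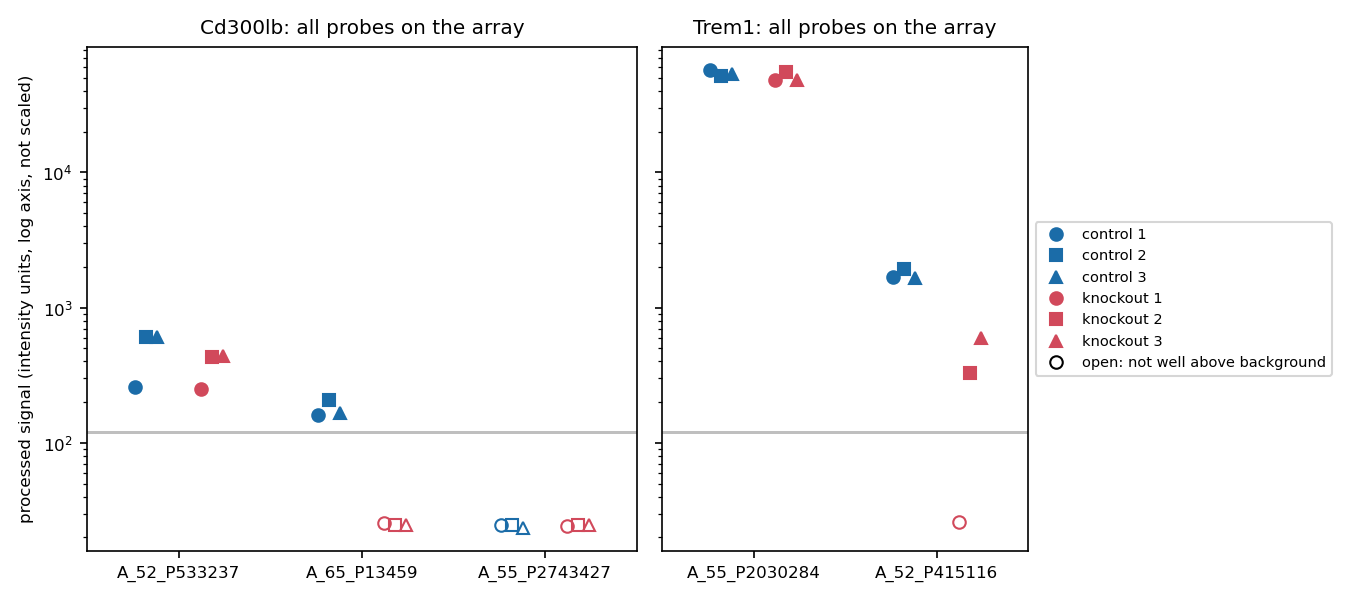
Processed signal in intensity units on a log axis (y axis) of every probe of Cd300lb and of Trem1 (x axis), 1 point per array, controls in blue and knockouts in red; open symbols are not well above background, and the grey band marks the lowest signals well above background (116 to 122 units). At A_65_P13459 the knockouts read 24.6 to 25.5 units, while at A_52_P533237 the groups overlap. The Trem1 groups overlap at A_55_P2030284. At A_52_P415116 all Trem1 knockouts lie below the controls, and only knockout 1 is not well above background.

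Cd300a, an inhibitory receptor for phosphatidylserine and phosphatidylethanolamine, also has 2 probes. A_52_P492142 gave -1.84, -2.96 and -3.18 in controls and -4.25, -3.69 and -4.12 in knockouts, without overlap. The difference was -1.36 (SE 0.37, limma adjusted p = 0.0819). The brighter probe, A_55_P2872513, was an outlier spot on all 6 arrays and could not be tested. With those spots kept it read 0.19, 0.93 and 0.72 in controls and 0.88, 0.83 and 1.12 in knockouts, which overlapped and lay on average 0.33 higher in the knockout.

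Cd300lf, which also carries inhibitory motifs and binds ceramide and sphingomyelin, gave similar differences at both probes. A_55_P2004511 stood at 0.07, 0.63 and 0.30 in controls and at -0.50, 0.29 and -0.80 in knockouts. Knockout 2, an outlier spot left out of the fit, lay inside the control range. The difference was -0.99 (SE 0.24, adjusted p = 0.0734) without it and -0.68 with it. A_66_P126211 gave -3.17, -2.85 and -3.52 in controls and -4.34, -3.28 and -4.46 in knockouts, again with knockout 2 among the controls, and a difference of -0.84 (SE 0.35, adjusted p = 0.186).

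Cd300a and Cd300lb are direct neighbours among the protein-coding genes of chromosome 11. Their 250 bases before the RefSeq start are shown because the pair lies side by side and the probes of Cd300lb disagreed. They are chr11:114889791-114890040 on the plus strand for Cd300a and chr11:114934372-114934621 on the minus strand for Cd300lb in GRCm38.p6, from RefSeq, 5′ to 3′, with the same capitals as above.
Cd300a: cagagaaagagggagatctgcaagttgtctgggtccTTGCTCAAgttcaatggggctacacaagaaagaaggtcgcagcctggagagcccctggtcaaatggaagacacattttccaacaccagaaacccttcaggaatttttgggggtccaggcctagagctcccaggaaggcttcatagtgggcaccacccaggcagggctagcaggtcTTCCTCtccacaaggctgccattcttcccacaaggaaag
Cd300lb: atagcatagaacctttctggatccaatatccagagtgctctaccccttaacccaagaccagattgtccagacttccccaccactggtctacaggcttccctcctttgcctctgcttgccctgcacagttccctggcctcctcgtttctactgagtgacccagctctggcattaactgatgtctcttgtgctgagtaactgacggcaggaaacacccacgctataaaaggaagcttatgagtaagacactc
The Cd300a window held GAGGAA on the other strand 39 bases before the start and TTGCNNAA at 214 bases. The Cd300lb window held neither of these letters, nor TGANTCA of the AP-1 site, which 6.75% of all windows held. Windows were present for 8 of the 10 receptors, and 7 of these held GAGGAA, beside 23.3% of all windows. The difference from that share was not tested. Trem3 and Clec4n had no window.

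The other tested CD300 family genes had estimates above 0. Of 10 further listed genes 6 were on the array by name and 3 were tested: Cd300lg of endothelium (0.21, SE 0.16), Cd300ld4 (0.32, SE 0.25) and Cd300e of monocytes (0.37, SE 0.28). All were higher by their estimates and none was called in limma (adjusted p 0.434 to 0.443). The Cd300lg knockouts lay above the controls, and the groups of the other 2 overlapped. Cd300ld4 read 119 to 208 intensity units, near the lowest signals well above background, and control 1 did not pass there. After scaling, Cd300lb probe A_55_P2743427, well above background on no array, was also 0.32 higher in the knockout. CD300 genes are close relatives, so cross-hybridisation between them is possible and was not tested.

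The adaptors of these receptors were measured at high signal on every array. Tyrobp, which encodes DAP12, stood at 1.94, 1.79 and 1.59 in controls and at 0.33, 1.45 and 0.91 in knockouts. The difference was -0.88 (SE 0.29, adjusted p = 0.121 in limma), without overlap between the groups. Fcer1g, which encodes the Fc receptor gamma chain, gave 1.99, 1.67 and 1.5 in controls and 0.27, 1.1 and 0.94 in knockouts, a difference of -0.95 (SE 0.26, adjusted p = 0.0848), also without overlap. Hcst, which encodes the related adaptor DAP10, differed by 0.06 (SE 0.23, adjusted p = 0.897), and its groups overlapped. None of the 3 passed the test.

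Further down the pathway, all 20 listed activating signal proteins were tested; 15 were lower and 5 higher, with a median of -0.32, and none was called in limma. Lcp2, an adaptor protein downstream of Syk, differed by -1.1 (SE 0.29, adjusted p = 0.0770) and the exchange factor gene Vav3 by -0.94 (SE 0.28, adjusted p = 0.0945); Lcp2 passed with outlier spots kept (0.0492). The kinase gene Src was 0.88 higher (adjusted p = 0.0610). Syk, the kinase shared by these receptors, was 0.45 higher (SE 0.15, adjusted p = 0.118), with all knockouts above all controls. Card9 differed by 0.53 at its brighter probe and by -0.76 at its dimmer probe, and neither was called (adjusted p = 0.340 and 0.387).

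Among cytokine and other genes known to be induced through Syk, Card9 and NF-kappa B, 14 of 16 listed genes were tested; 13 were lower, with a median of -2.09. Over all genes 2.47% were called lower, and here 3 of 14 were called, all lower. The list was drawn up with earlier results of these data known, so nothing is read from this count. Ccl3, a chemokine for monocytes and neutrophils, stood at 0.36, -0.29 and 0.11 in controls and -2.24, -2.35 and -2.70 in knockouts, and fell by 2.49 (SE 0.22, adjusted p = 0.0156). Ccl4, its close relative, fell by 2.46 (SE 0.20, adjusted p = 0.0105), and its other probe by 2.37 (adjusted p = 0.0156). Csf3, which encodes the granulocyte growth factor G-CSF, did not pass the background call in any knockout. It was at least 14.3-fold lower there (adjusted p = 0.0169 in limma). As it entered the test through its controls alone, nothing is read from that p-value. With single arrays dropped, Ccl4 was called in all 6 fits, Ccl3 in 4 (not on dropping control 3 or knockout 3) and Csf3 in 3 (not on dropping knockout 3, and not testable on dropping control 2 or control 3, since control 1 was an outlier spot). Tnf differed by 0.14 and Nlrp3 by -0.08, so not all of the list was lower. Many other pathways induce these genes too.

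The receptors differed between animals of the same group as well as between groups. Knockout 1 was the lowest of the 6 arrays at 8 of the 14 receptor probes with signal on some array, and the lowest knockout at 9 of 14. That array also had the lowest 75th percentile and the largest share of outlier spots (16.0%, against 3.26% to 13.6% on the others); the part of this in the values was not tested. The standard deviation was larger in knockouts than in controls at 8 of the 14 probes. At Trem1 (A_52_P415116) it was 2.27 in knockouts and 0.05 in controls, at Clec4e 2.06 and 0.15 with all spots, and at Clec4d 1.43 and 0.54. At Trem1 (A_52_P415116) and Clec4e, knockout 1 was not well above background. The order was the other way at Trem2 (0.41 in knockouts, 0.83 in controls) and at Cd300a A_52_P492142 (0.29 and 0.72).

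Markers of the cells that carry these receptors were read beside them. Of 15 neutrophil markers 12 were tested, 8 were called lower and 1, Ltf, was called higher. Over all tested genes 2.47% were called lower and 1.35% higher. The marker lists were drawn up with earlier results of these data known, so their counts are descriptions. The called lower ones were Retnlg, S100a8, Mmp8, S100a9, Mmp9, Cxcr2, Lcn2 and Camp, with log2 differences from -4.47 for Retnlg to -1.20 for Camp. The list holds Trem1. Without it, the summed linear level of the other 14 markers was 32.3 to 35.4 times the 75th percentile in controls. In knockouts it was 20.9 to 22.8 times that percentile. Ngp was well above background on no array. Such a linear sum is led by the brightest markers, and single differences on the list ran from -4.47 to 3.66. The sum therefore does not give the size of the difference at the called lower markers. Of 15 monocyte and macrophage markers 13 were tested, 11 lower and none called in limma, with a median of -0.75 and summed levels of 35.5 to 46.9 in controls and 30.4 to 35.1 in knockouts. The 8 pan-leukocyte markers had a median of -0.86, none called, with overlapping sums of 14.8 to 23.6 and 12.3 to 22.1. Dendritic cell markers had a median of -0.33, with 5 of 7 tested lower. Of the mast cell and eosinophil markers 4 were tested, 2 lower, and Prg2 was called lower.

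The other cell types of the colon wall also differed by their estimates, with none of their markers called in limma. All 4 tested endothelial markers were lower, with a median of -1.22 and summed levels of 9.53 to 10.73 in controls and 2.24 to 6.56 in knockouts. All 5 fibroblast markers were lower, with a median of -0.63 and sums of 26.6 to 31.7 in controls and 17.6 to 23.6 in knockouts. All 5 tested B and plasma cell markers were lower, with a median of -0.88 and overlapping sums, whereas T and NK cell markers had a median of 0.05. All 6 tested epithelial markers were higher, with a median of 1.08 and sums of 18.8 to 60.1 in controls and 66.0 to 85.7 in knockouts. The 4 tested smooth muscle markers were higher too, with a median of 0.35. The part of cell numbers in the receptor differences was not tested.

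To find genes with a similar pattern, the centred log2 values of 7 receptors measured on all 6 arrays were averaged. These were Trem1, Clec4d, Trem2, Cd300a, Clec7a, Cd300lf and Cd300lb. Trem1 and Cd300lb entered by their brighter probes (differences 0.18 and -0.05). Clec4e, Clec4n and Trem3 were left out because of outlier spots. Spreads were not equalised, so Clec4d, with the widest range, weighed most. The average was 0.79, 0.62 and 0.30 in controls 1 to 3 and -1.06, -0.10 and -0.56 in knockouts 1 to 3. Of 13241 other named genes, those with the highest Pearson correlation over the 6 arrays were Gprc5c, Itga10, Trf, Nup133 and Mcub, with r of 0.996 to 0.998. They were the highest of many genes over few arrays that share a split by genotype, so the values are descriptions. Their own differences ran from -1.09 for Mcub to -0.57 for Nup133.

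**Figure D4:**
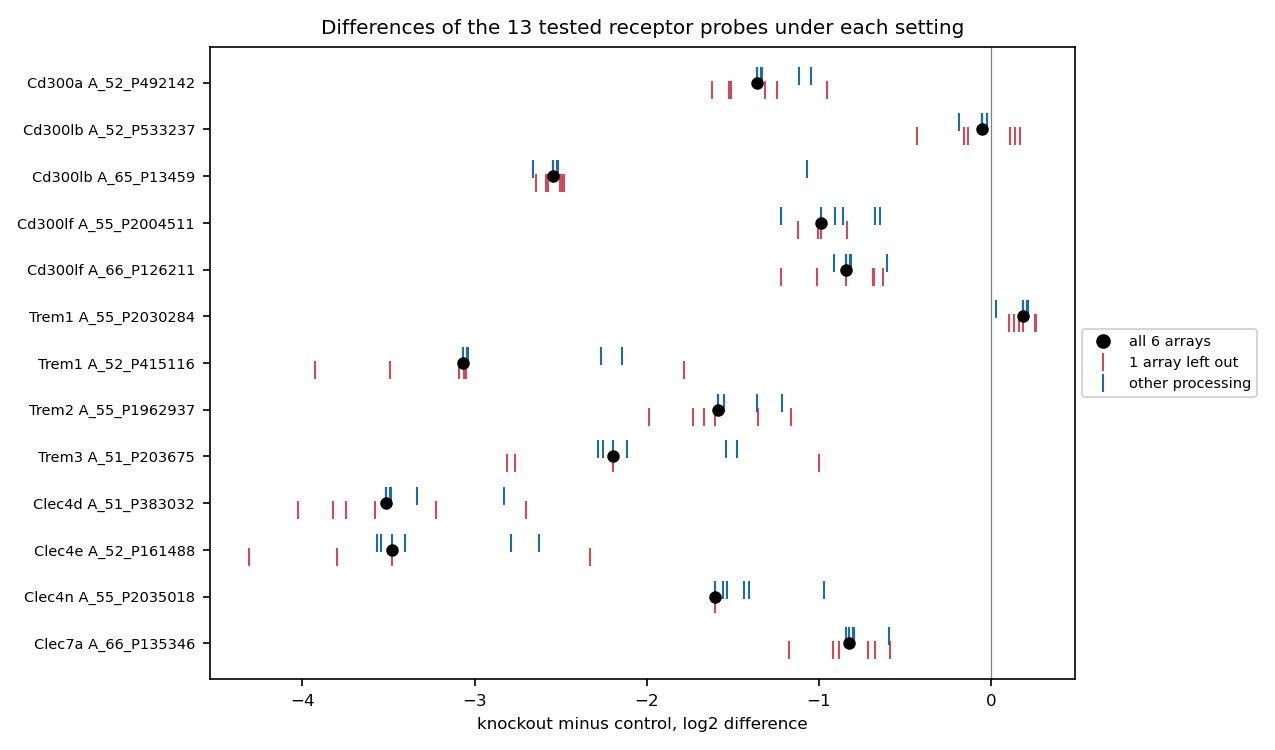
Knockout minus control log2 difference (x axis) of the 13 tested receptor probes (y axis) with all 6 arrays (black), with 1 array left out (red) and under other processing settings (blue). The brightest Cd300lb probe is the only one on both sides of 0 (-0.43 to 0.17 with 1 array left out); the dimmer Cd300lb probe moves to -1.07 under normexp background correction with quantile normalization.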

How the data were processed

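Arrays were scanned in the red channel and read by the authors with Agilent Feature Extraction 11.5.1.1, per the file headers (10.7 per the submitters' processing notes); the labels name Cy3 and a green column. The deposited processed signal is an intensity after background subtraction inside that software, unscaled between arrays. The deposited value table holds the same intensities averaged per probe (log2 correlation of at least 0.999999 with the scanner files) and served as an alternative.

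Log2 signals were reduced by each array's 75th percentile. Non-uniform and population outlier spots were set missing and the spots of a probe averaged. A probe was tested if well above background on all 3 arrays of a group with at least 2 usable values per group (35351 probes). Tests were two-sided moderated fits (limma 3.58.1, lmFit with eBayes, R 4.3.3), with Benjamini-Hochberg adjustment over all tested probes at 5%; adjusted p-values are from that fit, which was tested on simulated data. With 3 animals per group an exact permutation test cannot go below p = 0.1, and the number of arrays limits the precision. No label says whether the animals were littermates. The p-values set the group difference against the spread within the groups of these samples, moderated over all tested probes. They cannot separate genotype from slide row.

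Bounds ("at least N-fold") set the bright group's mean against, per dim array, the higher of the lowest signal well above background and the probe's own signal. Probes were named through RefSeq accessions in GRCm38.p6 (33767 of 56605); the files place probes on mm9, so no probe coordinates are given. The members, gene lists and naming rule were chosen with earlier results of these data known. Genes named are the 10 receptors, Islr, the adaptors, list genes that were called (up to 5 per list) and the 5 most similar genes; all others named were picked after seeing their values. Protein sequences were not used here. The alternatives were normexp with offset 50 and quantile normalization, median centring, outlier spots kept, no or a stricter filter on dim probes, array weights, the value table, and leaving out each array.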

Additional observations from a re-analysis of the deposited data

How the results depend on the processing

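No paired analysis was possible because the replicate numbers follow accession order and pair no animals. Over all probes 1403 were called; the count was 2773 with normexp and quantile normalization, 2249 with median centring, 1948 with outlier spots kept, 484 without a filter on dim probes, 7320 with array weights and 2274 from the value table. Leaving out 1 array gave 40 (knockout 3 dropped) to 2114 (control 1 dropped); dropping control 2 gave 71, dropping control 3 gave 90 and dropping knockout 1 gave 263. Called receptor probes numbered 2, then 1 without a filter, 1 with only probes well above background on all 6 arrays, 6 with array weights and 1 to 2 with an array left out. These counts include the Cd300lb probe chosen for its loss wherever that probe was tested. Receptor probes lower in the knockout numbered 12, then 8 under the strict filter, which tested 9, and 8 to 12 with an array left out. Outside the cell type marker lists, called list genes numbered 6, then 12 with normexp and quantile normalization and 10 with median centring. They numbered 3 without a filter, 4 with the strict filter, 30 with array weights and 1 to 9 with an array left out. Only the brightest Cd300lb probe changed sign, to 0.11 on dropping control 2, 0.17 on dropping control 3 and 0.14 on dropping knockout 1 (range with single arrays left out -0.43 to 0.17); the cause was not tested. Clec4d lost its call without a filter (adjusted p = 0.0741 in limma). Trem2, Clec4e, Cd300a and Cd300lf (A_55_P2004511) passed with array weights alone (0.0185 to 0.0483). Probes near background (Cd300lb A_65_P13459, Clec12b, Csf3) give bounds, not sizes.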

Other observations

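Genes of reported ligands and partners of these receptors were mixed in direction: of 10 listed genes 9 were tested, 3 lower and 6 higher, with a median of 0.13 and none called in limma. Pglyrp1, a peptidoglycan recognition protein reported to bind Trem1, was 0.92 higher (SE 0.30, adjusted p = 0.114), with all knockouts above all controls. Apoe, a lipoprotein that binds Trem2, differed by 0.13 (SE 0.17, adjusted p = 0.658), and Sap130, reported to bind Clec4e, by 0.19 (SE 0.23, adjusted p = 0.632, 1 outlier spot left out). Among listed inhibitory receptors and phosphatases that are not among the 10 receptors, 7 of 8 tested were lower and none was called, with a median of -0.72; Fcgr2b, the inhibitory Fc receptor, differed by -1.35 (SE 0.38, adjusted p = 0.0862), and the phosphatase genes Ptpn6 and Ptpn11 differed by -0.53 and -0.02. These genes were named after their values were seen.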
